A study of Mus musculus with 248 samples.

Results

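Blood of mice carrying the Cbfb-MYH11 (CM) oncogene was compared with blood of littermate controls (CTL) at months 4, 5 and 6 after induction, with attention to how far the CM mice differed from each other. The training table columns of these months were taken, and each CM library was read as its difference from the mean of the 7 CTL libraries of the same month. This gave 38 of the 248 libraries of the series, 17 from CM mice (7, 5 and 5 at months 4, 5 and 6) and 21 from CTL mice (7 in each month). CM mice were Cbfb+/56M/Mx1-Cre C57BL/6 animals, labelled CHW, in which Mx1-Cre turns on the knock-in after poly (I:C). CTL littermates were labelled HW, CW or WT, which the labels do not spell out, and were wild-type or carried Cbfb+/56M or Mx1-Cre but not both. All mice of both arms were 4 to 8 weeks old at treatment and received 7 doses of 14 mg/kg poly (I:C), so the interferon inducer is shared by the arms, and Mx1-Cre acts in many interferon-responsive tissues and not in blood-forming cells alone. Each mouse gave 1 library per month, and blood RNA was sequenced in bulk after ribosomal RNA depletion. Males and females were mixed in both arms, but unevenly. CM mice 3336, 3338, 3341 and 3357 and CTL mice 3349 and 3350 were female, and the other mice were male.

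CBFB is the partner subunit that lets RUNX proteins hold DNA, and the fusion of CBFB to the smooth muscle myosin heavy chain MYH11 is the product of inversion of chromosome 16 in human acute myeloid leukemia. The fusion blocks the maturation of blood progenitors, and further events are needed before leukemia appears. In this mouse model the leukemic blasts carry the stem cell factor receptor KIT on their surface, and progenitors at the edge of the erythroid, basophil and mast cell lineages share KIT and the transcription factor GATA2.

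The CM mice left the study at different times. Mice 3338 and 3357 gave their last library at month 4, mouse 3341 at month 6, mouse 3334 at month 6.5, mouse 3336 at month 7, mouse 3370 at month 9 and mouse 3368 at month 10. Sampling ran for up to 10 months or until a mouse was moribund with leukemia, and the labels do not give the reason for each mouse. Depth ran between 16080320 and 36259517 reads of listed genes per library, and the deepest libraries were CM 3341 at month 6 and CM 3338 at month 4, so reads given below are to be read beside log2 CPM, which is scaled for depth. The cells are labelled PBMC, and all 13 measured B cell markers, all 15 T cell markers and all 14 monocyte markers had reads in both arms in each month. Red cell RNA was present too: the 4 globin genes took 0.213% to 39.3% of the reads of CM libraries and 1.35% to 37.4% of CTL libraries. In bulk RNA, fewer cells of a type and less RNA per cell cannot be told apart. Samples were spread over 7 library groups (G1 to G7), and at month 4 no group held libraries of both arms, so arm and library group cannot be told apart within that month.

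A library of each arm went against its label at month 5. The library labelled CM 3334 had 0 reads of Mcpt1, Wnt2, Ccl24 and the feature named MHY11 described next, whereas the library labelled CTL 3335 had 26, 10, 13 and 4 reads of them. The other 6 CTL libraries of month 5 had at most 0, 0, 8 and 1 reads of the same features. In the sample titles each mouse has a run of serial numbers, and those of mice 3334 and 3335 break off after month 5: the last 2 numbers of mouse 3334, 7 and 8, continue the run of 1 to 6 that mouse 3335 has at months 0 to 5. The labels were kept as given. Many results that rest on these libraries are given with and without both mice, and the others are given with them only.

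The targeted locus was read first. The training table lists a feature named MHY11, which no annotation used here describes, apart from mouse Myh11. At month 4 its reads were 1 at the lowest, 5 at the median and 19 at the highest in the 7 CM libraries, and 1 read was found in CTL 3335 and 0 in the other 6 CTL libraries. At month 5 the CM libraries had 0 (3334), 3 (3336), 6 (3341), 4 (3368) and 1 (3370) reads, and at month 6 they had 8 (3334), 1 (3336), 17 (3341), 3 (3368) and 0 (3370) reads. No CTL library of any month held more than 4 reads, so the feature was sparse in both arms, and its highest values came from CM mice 3338 and 3341. In the mean of the months it was called higher in CM, at -3.32 ± 0.86 log2 CPM against -5.88 ± 1.16 log2 CPM in CTL mice (limma adjusted p = 0.03, and 0.0186 without mice 3334 and 3335). Mouse Myh11 was called too, at 1.996 ± 0.35 log2 CPM in CM and -1.24 ± 2.02 log2 CPM in CTL mice (adjusted p = 0.0152, and 0.0197 without both mice). Most CTL libraries held 0 reads of MHY11, so its fitted difference depends on the prior. Cbfb itself averaged 5.60 ± 0.44 log2 CPM in the 5 CM mice with all months and 5.65 ± 0.40 log2 CPM in the 7 CTL mice (SD), a difference of -0.08 ± 0.22 log2 (SE, limma adjusted p = 0.945). CPM is the reads of a gene scaled to library size, and log2 CPM of a gene with 0 reads is -6.52 in this table.

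**Figure D1:**
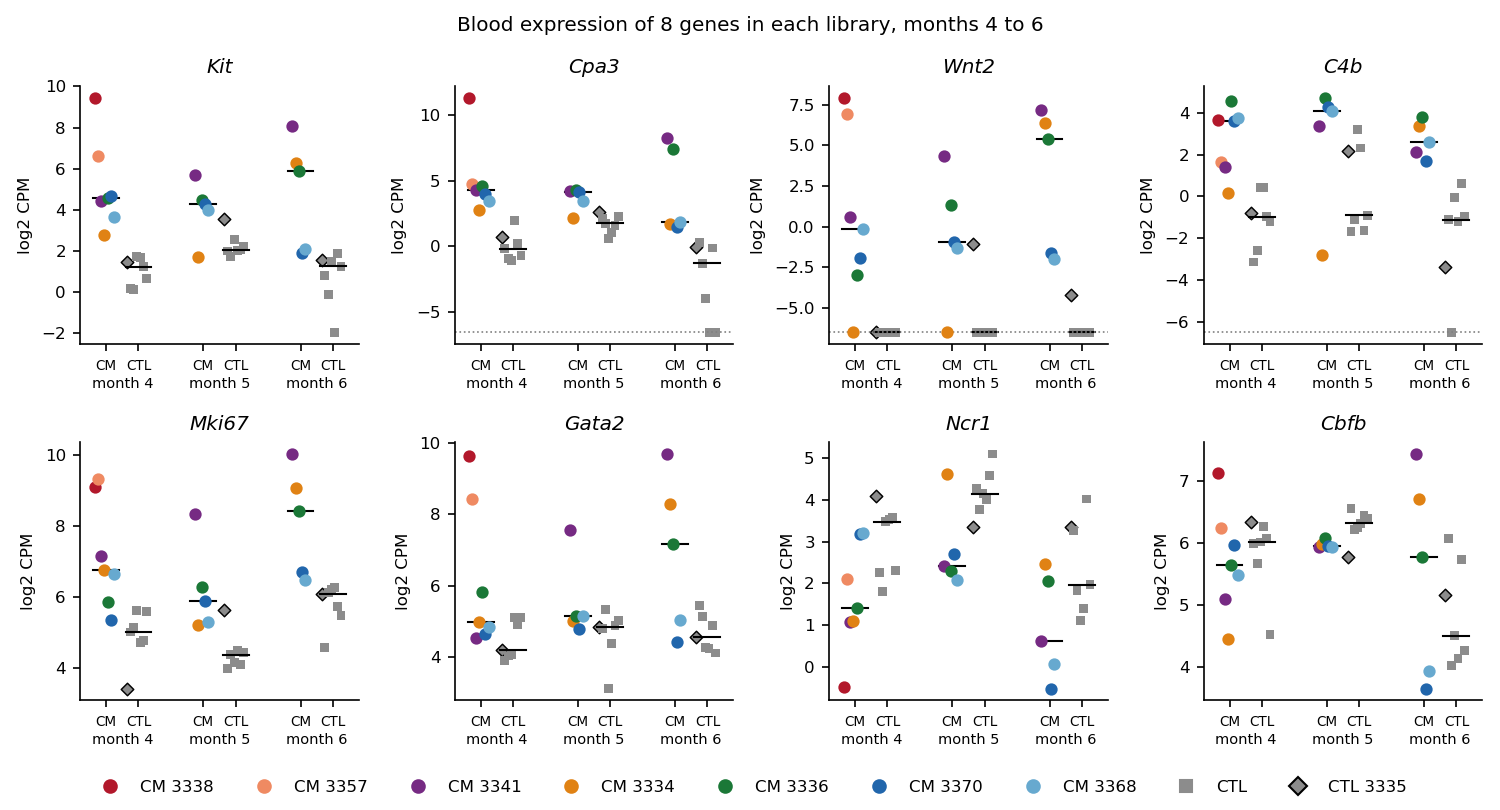
Expression of 8 genes in log2 CPM (vertical axis) in each library at months 4, 5 and 6, CM left of CTL. Circles are CM libraries coloured by mouse, squares are CTL libraries, the outlined diamond is CTL mouse 3335, black lines are medians and the dotted line is 0 reads. Kit reached 9.45 in CM 3338 at month 4 and 8.07 in CM 3341 at month 6, while no CTL library exceeded 3.55.

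Single months gave few calls, where a call is a limma adjusted p under 0.05 over all 18508 genes with sex in the fit. At month 4 Igf1, the insulin-like growth factor (ENSMUSG00000020053, chr10:87858265-87937047, GRCm38), was the only gene called (1 of 18508 genes, 0.0054%). Its CM libraries had 10 to 180 reads, with a median of 23, and its CTL libraries 0 to 2 reads. The arms did not overlap, and the difference was 5.87 ± 0.74 log2 (SE, adjusted p = 0.00669). Without CTL 3349, and likewise without CTL 3350, 0 genes were called at month 4, without CM 3338 there were 3, and without mice 3334 and 3335 there were 2 (0.0108%).

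Kit, the stem cell factor receptor (ENSMUSG00000005672, chr5:75574987-75656722), did not overlap between arms at month 4 either, yet missed the threshold. It was 2.78 log2 CPM at the lowest, 4.59 at the median and 9.45 at the highest in CM libraries, against 0.13, 1.23 and 1.71 in CTL libraries. The difference was 3.78 ± 0.74 log2 (SE, limma adjusted p = 0.26, and 0.00122 with log2 globin share as a covariate). Every CM library lay above every CTL library for 37 genes (0.2% of those tested) and below for 13 genes (0.0702%). Cpa3, Il1rl1, Car1, Ntn4 and Slc22a3 were among the 37, and Vpreb3 was among the 13.

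At month 6 the 3 called genes (0.0162%) were Mcpt1, a mast cell protease (chr14:56017964-56020391), Wnt2, a secreted Wnt ligand (chr6:17985474-18032772), and Ccl24, an eosinophil-attracting chemokine (chr5:135569935-135573123). Mcpt1 has close paralogs, so some reads may be shared among them. Mcpt1 had 54 (3334), 3207 (3336), 4785 (3341), 85 (3368) and 22 (3370) reads in CM libraries and 0 in each of the 7 CTL libraries. Wnt2 had 1925, 1029, 5180, 5 and 5 reads in the same CM order and 0 to 1 read in CTL libraries. Scaled for depth, Wnt2 was 7.16 log2 CPM in CM 3341 and -1.64 log2 CPM in CM 3370. All 5 CM mice were above all CTL mice for both genes, and the level spread from 5 to 5180 reads of Wnt2 among the CM mice. Leaving out CM 3370 raised the count of calls at month 6 to 26, and leaving out CM 3368 raised it to 11, while leaving out mice 3334 and 3335 gave 2 (0.0108%), with Wnt2 no longer called (adjusted p = 0.114). At that month every CM library lay above every CTL library for 0.621% of genes and below for 0.135%, among the higher ones 6 of the 20 cell cycle genes listed (Mki67, Top2a, Birc5, Rrm2, Ccna2 and Ccnb2).

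Month 5 gave 0 calls (0%), while 1583 genes had an unadjusted p below 0.05, and the limma-voom count on recovered reads was likewise 0. Without mice 3334 and 3335 it gave 323 (1.75%), 235 higher in CM (1.27%) and 88 lower (0.475%). Most of that change came with 1 library: leaving out CTL 3335 alone gave 296 calls. Both mice were set apart after seeing month 5 values of genes that differ between the arms. A rise in calls without them is therefore partly built in, and the p-values below are not independent of that choice. Without both mice, Kit was 2.43 ± 0.28 log2 higher in CM (SE, adjusted p = 0.0165) and Cpa3 2.38 ± 0.31 log2 higher (adjusted p = 0.0165), while Ncr1, an activating receptor of natural killer cells, differed by -2.02 ± 0.22 log2 (adjusted p = 0.0165). With all libraries, Kit was 1.70 (3334), 4.46 (3336), 5.68 (3341), 3.98 (3368) and 4.26 (3370) log2 CPM in CM, against 1.72 at the lowest, 2.04 at the median and 3.55 at the highest in CTL. Every CM library lay above every CTL library for 24 genes (0.13%) and below for 16 genes (0.0864%). For Kit the lowest CM library was the one labelled 3334 and the highest CTL library the one labelled 3335.

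Averaging the 3 months of each mouse, 5 CM mice against 7 CTL mice, gave far more calls. Of 18508 genes, 420 were called (2.27%), 336 higher in CM (1.82%) and 84 lower (0.454%). The CM mean lay above the CTL mean in all 3 months for all but 1 of the 336 higher genes. These genes were called on the mean of the same months, so this agreement is largely built in. Without mice 3334 and 3335 the count was 159 (0.859%), with 0.746% of genes higher and 0.113% lower. All 420 differences kept their sign and 149 of them were still called. The remaining mice also took part in the first call, so the kept signs are not independent evidence. The count was 172 without CM 3341, 178 without CTL 3349 and 182 without CM 3334. With median-ratio scaling 511 genes were higher and 446 lower, so the split between directions depends on the scaling.

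The 10 largest increases among called genes of more than 1 mean log2 CPM, in order of size, were Cpa3, Fcer1a, Car1, Ms4a2, Il1rl1, Ntn4, Kit, Ces2g, Podxl and Pkhd1l1. Kit averaged 4.29 ± 1.19 log2 CPM in CM mice and 1.33 ± 0.64 log2 CPM in CTL mice (SD, n = 5 and 7), a difference of 2.84 ± 0.35 log2 (SE, limma adjusted p = 0.000386). Its CM mice ranged between 3.25 (3368) and 6.05 (3341), all above the highest CTL mouse at 2.19. Ntn4, which encodes the matrix protein netrin 4, averaged 2.77 ± 1.20 in CM and -0.26 ± 0.34 in CTL mice, and Car1, the carbonic anhydrase of erythroid progenitors, 2.64 ± 2.11 and -0.83 ± 0.68 log2 CPM. The SD among CM mice was the larger for these 3 genes. The 10 largest decreases under the same rule were Mybpc2, Adamts14, Btnl2, Klri2, Vpreb3, Cacna1h, Col27a1, Ffar1, Ncr1 and Cecr2. Mybpc2, a muscle myosin-binding protein, differed by -1.55 ± 0.31 log2 (adjusted p = 0.00969, and 0.078 without mice 3334 and 3335).

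**Figure D2:**
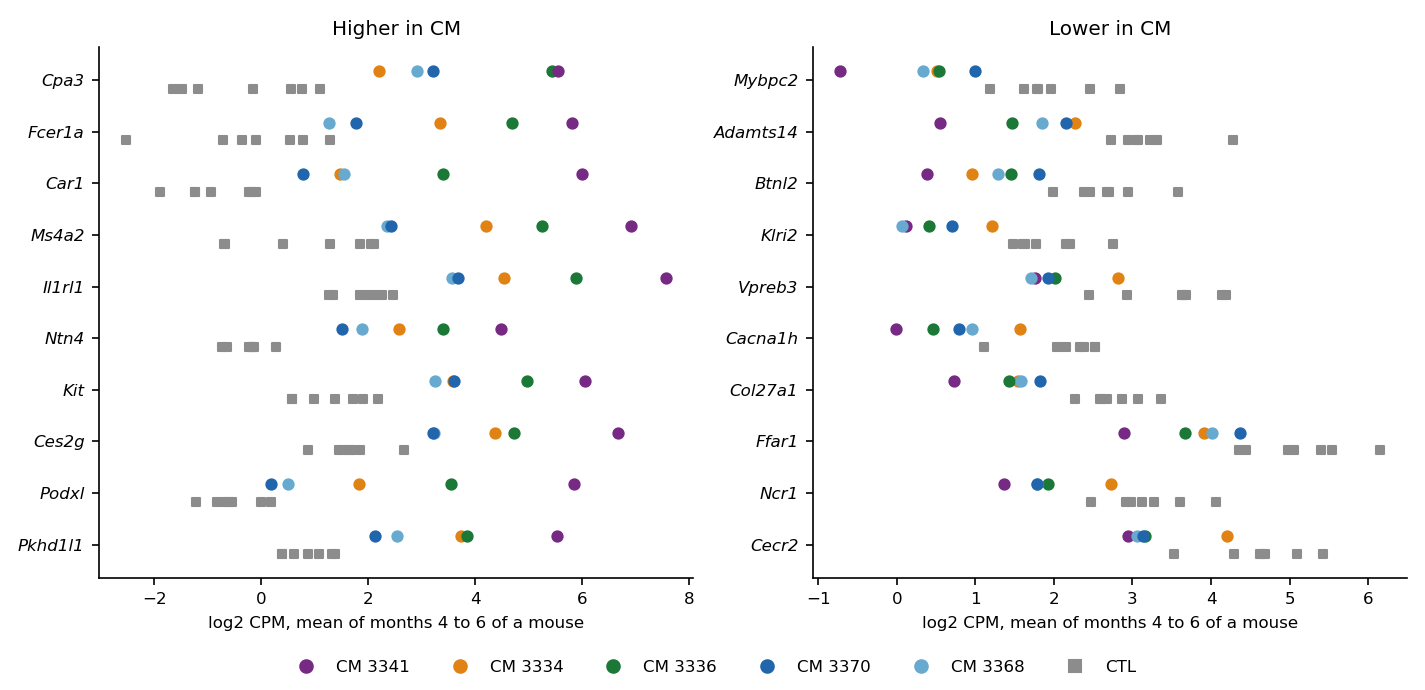
Mean log2 CPM of months 4 to 6 for each mouse (horizontal axis) for the 10 largest increases (left) and the 10 largest decreases (right) among called genes above 1 mean log2 CPM. Coloured circles are the 5 CM mice and grey squares beneath them the 7 CTL mice. CM 3341 is highest for 10 of 10 increases, and Kit spans 3.25 to 6.05 in CM against 0.57 to 2.19 in CTL.

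Basophil and mast cell genes were the group with the largest median difference among the cell type lists. Of 12 measured members, 6 rose (Cpa3, Fcer1a, Il1rl1, Mcpt1, Mcpt2 and Ms4a2), 0 fell and 6 were not called, with a median difference of 2.82 log2, against -0.04 over all genes tested. All 6 were still called without mice 3334 and 3335. Of all genes tested, 1.82% were called higher, and 0.746% without both mice. Cpa3, the mast cell carboxypeptidase, averaged 3.86 ± 1.54 log2 CPM in CM and -0.29 ± 1.14 log2 CPM in CTL mice, and Il1rl1, the interleukin 33 receptor, 5.05 ± 1.69 and 1.89 ± 0.45 log2 CPM. Fcer1a and Ms4a2 encode the alpha and beta chains of the high-affinity IgE receptor. Fcer1a averaged 3.37 ± 1.92 log2 CPM in CM and -0.15 ± 1.25 in CTL mice.

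The promoter windows of these genes are shown because they moved together and because RUNX and GATA factors act in this lineage. RefSeq windows of GRCm38.p6, 250 bases before to 50 after the start, were found for 5 of the 6 genes, and the 4 genes with 1 window are printed. Capitals mark GATAA, the core read by GATA factors, and TGTGGT, the core read by RUNX proteins, each on either strand, so that TTATC and ACCACA are their reverse complements, and no match of one overlaps a match of the other.
Cpa3, chr3:20242132-20242431, minus strand: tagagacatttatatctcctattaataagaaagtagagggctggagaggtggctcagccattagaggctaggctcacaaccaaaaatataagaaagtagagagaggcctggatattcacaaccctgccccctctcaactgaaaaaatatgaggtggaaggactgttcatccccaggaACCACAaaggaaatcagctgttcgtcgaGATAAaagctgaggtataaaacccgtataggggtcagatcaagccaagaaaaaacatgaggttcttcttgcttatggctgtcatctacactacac
Fcer1a, chr1:173227180-173227479, minus strand: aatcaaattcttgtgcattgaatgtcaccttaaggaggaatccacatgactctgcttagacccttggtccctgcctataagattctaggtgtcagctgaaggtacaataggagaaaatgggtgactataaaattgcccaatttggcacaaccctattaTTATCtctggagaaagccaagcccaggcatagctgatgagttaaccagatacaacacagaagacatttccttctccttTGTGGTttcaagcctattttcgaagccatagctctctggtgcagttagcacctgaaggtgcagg
Mcpt1, chr14:56017714-56018013, plus strand: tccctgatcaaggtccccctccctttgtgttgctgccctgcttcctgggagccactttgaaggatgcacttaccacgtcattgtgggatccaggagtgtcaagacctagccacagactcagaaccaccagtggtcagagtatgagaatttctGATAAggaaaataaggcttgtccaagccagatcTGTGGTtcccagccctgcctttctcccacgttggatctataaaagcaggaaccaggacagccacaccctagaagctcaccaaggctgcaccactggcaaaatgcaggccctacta
Ms4a2, chr19:11623670-11623969, minus strand: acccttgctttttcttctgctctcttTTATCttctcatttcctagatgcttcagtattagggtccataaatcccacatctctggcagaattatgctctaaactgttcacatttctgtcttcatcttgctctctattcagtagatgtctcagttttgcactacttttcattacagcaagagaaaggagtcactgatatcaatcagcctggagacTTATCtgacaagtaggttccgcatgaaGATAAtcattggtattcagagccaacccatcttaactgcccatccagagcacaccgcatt

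GATAA was found in all 4 windows (1, 1, 1 and 3 matches in Cpa3, Fcer1a, Mcpt1 and Ms4a2) and TGTGGT in 3 of them (1 match each in Cpa3, Fcer1a and Mcpt1). Of 32851 promoter windows of this length, 25.4% hold GATAA and 16.8% hold TGTGGT on either strand. These matches describe the letters only, and binding was not measured here.

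The rise of these genes was unequal among the CM mice. At month 4 the median difference of the 12 basophil and mast cell genes from the CTL mean was 9.57 log2 in CM 3338 and 4.69 in CM 3357, against 0.996 to 2.74 in the other 5 CM libraries and -1.12 to 1.51 in CTL libraries, each set against the other CTL libraries. At month 6 it was 9.81 in CM 3341, 6.54 in CM 3336 and 3.45 in CM 3334, against 0.72 in CM 3368 and 1.12 in CM 3370. The last 2 values lay within the CTL range of -1.77 to 2.16. A shift of the whole library was not taken off these medians. Over all genes tested the month 6 median difference was -0.52 in CM 3368, -0.88 in CM 3370 and 0.69 to 1.05 in the other CM libraries. In CTL libraries it was -1.05 to 1.21, and it was highest in CTL 3339, the library at 2.16. The overlap with CTL was not tested with this shift removed. Cpa3 shows this by mouse, with 1.69 (3334), 7.38 (3336), 8.20 (3341), 1.84 (3368) and 1.49 (3370) log2 CPM in CM at month 6 and -6.52 to 0.30 log2 CPM in CTL.

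Stem and progenitor genes rose in part, where 1.82% of all genes tested were called higher, and 0.746% without mice 3334 and 3335. Of 19 measured, 6 were called higher (Kit, Cd34, Gata2, Erg, Hlf and Ikzf2), 0 lower and 13 not, with a median difference of 0.49 log2, and 4 were called without mice 3334 and 3335. Erg, an ETS factor of stem cells and megakaryocytes, averaged 0.84 ± 1.61 log2 CPM in CM and -2.57 ± 0.92 log2 CPM in CTL mice, and Hlf, a stem cell factor, 1.72 ± 1.07 and -1.08 ± 1.32 log2 CPM. Gata2, the GATA factor of early progenitors and mast cells, averaged 5.81 ± 1.03 log2 CPM in CM and 4.59 ± 0.36 log2 CPM in CTL mice (adjusted p = 0.0432), and lost its call without mice 3334 and 3335 (adjusted p = 0.254).

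Gata2 was well above CTL in some CM libraries and near or within the CTL range in others. At month 4 CM 3338 had 9.62 and CM 3357 had 8.41 log2 CPM, while the other 5 CM libraries lay between 4.53 and 5.84 and the CTL libraries between 3.91 and 5.12. At month 5 CM 3341 alone stood out, with 7.55 log2 CPM against 4.80 to 5.16 in the other CM libraries and 3.12 to 5.34 in CTL. At month 6 the values were 8.29 (3334), 7.18 (3336), 9.69 (3341), 5.06 (3368) and 4.44 (3370) log2 CPM in CM and 4.12 to 5.45 log2 CPM in CTL. Mice 3368 and 3370, which were sampled longest, stayed within the CTL range at month 6.

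Cd34 moved differently from Kit. It was higher in CM over the 3 months, at 0.56 ± 0.56 log2 CPM against -0.94 ± 0.42 log2 CPM in CTL mice (difference 1.44 ± 0.32 log2, limma adjusted p = 0.0194, and 0.0577 without mice 3334 and 3335). Between months 4 and 6 it dropped in all 5 CM mice, by 0.62 (3334), 1.15 (3336), 2.34 (3341), 0.49 (3368) and 1.79 (3370) log2. Kit over the same interval changed by 3.51 (3334), 1.27 (3336), 3.65 (3341), -1.57 (3368) and -2.81 (3370) log2. CTL mice changed by -2.59 to 2.22 log2 in Cd34 and by -3.64 to 0.66 log2 in Kit. The arms' changes overlapped for both genes, and neither difference between arms was called (adjusted p = 0.781 for Cd34 and 0.841 for Kit). Over all genes the change between months 4 and 6 gave 0 calls by limma, with 1199 genes at an unadjusted p under 0.05.

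Of 20 cell cycle genes measured, 11 were called higher in the mean of the months, against 1.82% of all genes tested. Of the same 20, 0 were called lower and 9 were not called, with a median difference of 1.32 log2. Without mice 3334 and 3335, against 0.746% of all genes tested, 2 of these cell cycle genes were called. Their summed level was wide in CM blood, with a median of 249, 240 and 847 CPM and a maximum of 1717, 843 and 3154 CPM at months 4, 5 and 6, against medians of 149, 149 and 165 CPM and maxima of 164, 178 and 175 CPM in CTL blood. Mki67, the proliferation antigen Ki-67, was 5.35 log2 CPM at the lowest, 6.76 at the median and 9.34 at the highest in CM libraries of month 4, against 3.43, 5.02 and 5.63 log2 CPM in CTL. At month 6 it was 9.07 (3334), 8.43 (3336), 10.03 (3341), 6.48 (3368) and 6.71 (3370) log2 CPM in CM, all above the CTL range of 4.58 to 6.28. Mki67 averaged 1.78 ± 0.29 log2 higher in CM over the 3 months (SE, adjusted p = 0.0026), and kept its call without both mice (adjusted p = 0.0278).

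Hoxa genes, which keep progenitors immature and are often high in human leukemias of other types, differed widely among the CM mice at month 6. Hoxa10 had 1 (3334), 67 (3336), 1148 (3341), 0 (3368) and 0 (3370) reads in CM libraries and 0 to 1 read in CTL libraries at month 6. Hoxa9 had 1, 44, 563, 0 and 2 reads in the same CM order and 0 to 1 read in CTL. Mouse 3341 already had 89 reads of Hoxa10 and 80 of Hoxa9 at month 5. Hoxa7 was already at 377 reads in CM 3357 at month 4, against 1 to 8 in CTL. It followed another order at month 6, with 451 reads in CM 3334, 143 in CM 3336, 1223 in CM 3341 and 0 in both CM 3368 and CM 3370, against 0 to 8 reads in CTL. Hoxa9 was the 1 called member of 8 in the mean of the months (3.01 ± 0.69 log2, adjusted p = 0.0234), where 1.82% of all genes tested were called higher. Meis1, the usual partner of HOXA9, did not share this: CM 3341 had -0.76 log2 CPM at month 6, below the CTL range of 1.73 to 3.23.

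Erythroid genes were higher in the mean of the months, while single libraries of the arms overlapped. Of 13 measured, 7 were called higher (Klf1, Epor, Ermap, Rhag, Rhd, Kel and Slc4a1) and 0 lower, with a median difference of 1.13 log2, and 5 were higher without mice 3334 and 3335. Of all genes tested, 1.82% were called higher, and 0.746% without both mice. At month 4 the list median of a library was 0.11 to 2.45 log2 in CM and -2.69 to 1.67 in CTL. At month 5 it was 1.39 to 2.83 in CM and -1.17 to 2.37 in CTL, where CTL 3335 was highest and the next was 0.47. At month 6 it was -0.11 to 1.69 in CM and -1.84 to 0.99 in CTL. Klf1, the master factor of erythroid genes, averaged 1.82 ± 1.91 log2 CPM in CM and -1.77 ± 0.58 in CTL mice, and Rhag, a Rh-associated membrane protein, 4.30 ± 0.23 and 2.74 ± 0.57 log2 CPM. Rhag was the most even of those named, with CM mice between 4.04 and 4.57 and all above the CTL maximum of 3.44. Globin share, another red cell measure, was at 6.88% to 13.8% in CM and 1.48% to 13.1% in CTL libraries at month 5, where the highest CTL value was CTL 3335. At month 6 it was 0.541% to 39.3% in CM and 7.90% to 37.4% in CTL. With log2 globin share as a covariate 1321 genes were called in the mean of the months, including 415 of the 420, and the part of red cell RNA in the erythroid list was not tested further.

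Some B cell and natural killer cell genes fell, where 0.454% of all genes tested were called lower, and 0.113% without mice 3334 and 3335. Of 13 B cell genes, 0 rose, 5 fell (Cd22, Cd72, Ebf1, Pax5 and Vpreb3) and 8 were not called, with a median difference of -0.85 log2, and 1 fell without mice 3334 and 3335. Vpreb3, a pre-B cell receptor component, averaged 2.04 ± 0.45 log2 CPM in CM and 3.52 ± 0.63 log2 CPM in CTL mice, and Cd22, a brake on B cell receptor signalling, 7.50 ± 0.27 and 8.60 ± 0.56 log2 CPM. Of 12 natural killer genes, 0 rose, 4 fell (Gzma, Klra4, Klra8 and Ncr1) and 8 were not called, with a median difference of -0.24 log2, and all 4 were still called without both mice. Klra4, a Ly49 receptor, averaged -1.35 ± 1.15 log2 CPM in CM and 1.16 ± 0.36 log2 CPM in CTL mice (difference -2.45 ± 0.40 log2, adjusted p = 0.0026). Klra4 and Klra8 are near-identical in sequence to other Ly49 genes, so reads may be split among them.

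The other lists held few or no calls, apart from a list chosen on these mice. None of the 15 T cell, 14 monocyte, 10 dendritic cell, 5 eosinophil, 13 platelet, 10 promyelocyte granule, 12 nucleolar, 12 immediate early, 8 heat shock or 6 mitochondrial genes measured was called. The T cell list had a median difference of 0.53 log2 and the promyelocyte granule list 0.70 log2 with no member called. Isg15 of 14 interferon genes and Ngp of 14 neutrophil genes were called higher, and both calls were lost without mice 3334 and 3335 (limma adjusted p = 0.0869 and 0.0849). Of 15 cytokine and growth factor genes, Ccl24, Igf1 and Wnt2 were higher, where 1.82% of all genes tested were called higher and 0.454% lower. A list of 10 genes chosen earlier from months soon after induction in these same mice had 9 higher, which is not independent evidence. Among them C4b, a complement component, averaged 2.73 ± 1.57 log2 CPM in CM and -0.86 ± 1.53 in CTL mice. A matching list of 6 early decreases had 2 lower, Akap12 and Cecr2.

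**Figure D3:**
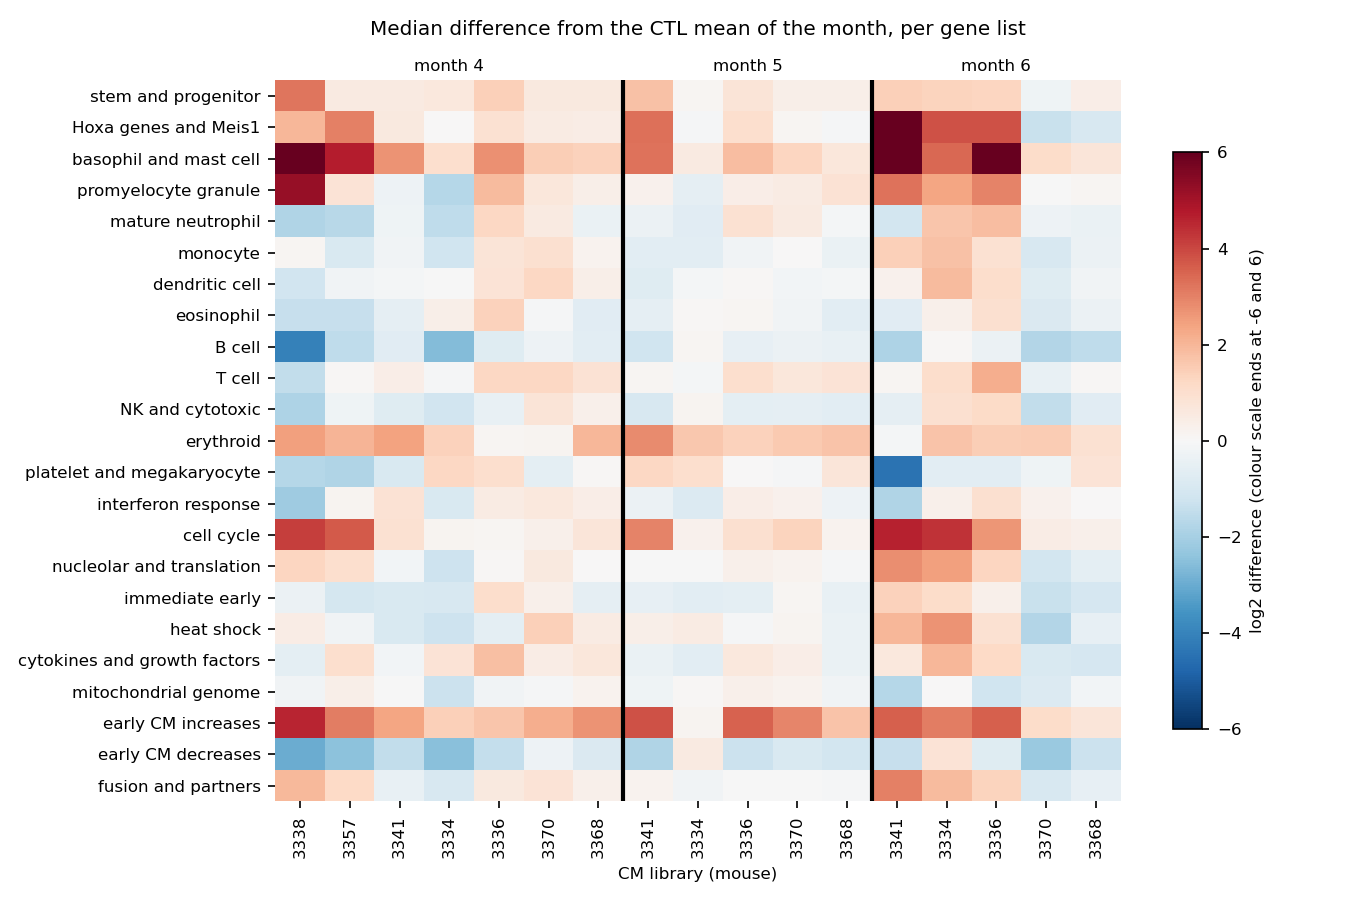
Median log2 difference from the CTL mean of the month over the measured members of each of 23 gene lists (rows) in each CM library (columns, by month, ordered by the mouse's last sampling month). Red is higher than CTL, blue lower, and the colour scale ends at -6 and 6. Shifts of a whole library are not taken off. Basophil and mast cell genes reach 9.57 in CM 3338 at month 4 and 9.81 in CM 3341 at month 6, while CM 3370 and CM 3368 at month 6 are at 1.12 and 0.72.

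The distance of a whole library from CTL blood was taken as the root mean square (RMS) log2 difference over 11230 genes with a mean above 1 log2 CPM. At month 4 the RMS difference of CM libraries was 0.519 at the lowest, 0.608 at the median and 1.84 at the highest, against 0.377, 0.524 and 1.34 in CTL libraries set against the other CTL libraries. The arms overlapped: the 3 most distant CM libraries were 3338 (1.84), 3334 (1.497) and 3357 (1.13), and CTL 3350 lay at 1.34. CM 3334 and CTL 3350 were shifted down as whole libraries, with median differences over all genes tested of -1.31 and -1.095 log2. In CM 3338 and CM 3357 these medians were 0.03 and 0.05 log2. The basophil and mast cell median of CM 3334 was the lowest of the 7 CM libraries, with its shift not taken off. At month 5 CM libraries lay at 0.406 (3334), 0.467 (3336), 0.754 (3341), 0.432 (3368) and 0.535 (3370), against 0.358 to 0.722 in CTL. At month 6 they lay at 1.51 (3334), 1.10 (3336), 2.14 (3341), 0.756 (3368) and 1.06 (3370), against 0.522 to 1.32 in CTL.

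A large distance did not mean the same change in each mouse. CM 3341 at month 6 had 981 genes more than 3 log2 above the CTL mean and 418 more than 3 log2 below it, and globin was 0.541% of its reads. CM 3338 at month 4 had 379 above and 717 below, with globin at 0.213%. CM 3334 at month 4 had 1 above and 147 below, with globin at 32.5%, and Kit there was the lowest of the 7 CM libraries. CM 3370 at month 6 was similar to that library, with 1 above, 55 below and globin at 39.3%. In CTL libraries of month 6, CTL 3340 had 0 above and 44 below with globin at 33.7%. The part of globin share in these counts was not tested library by library.

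**Figure D4:**
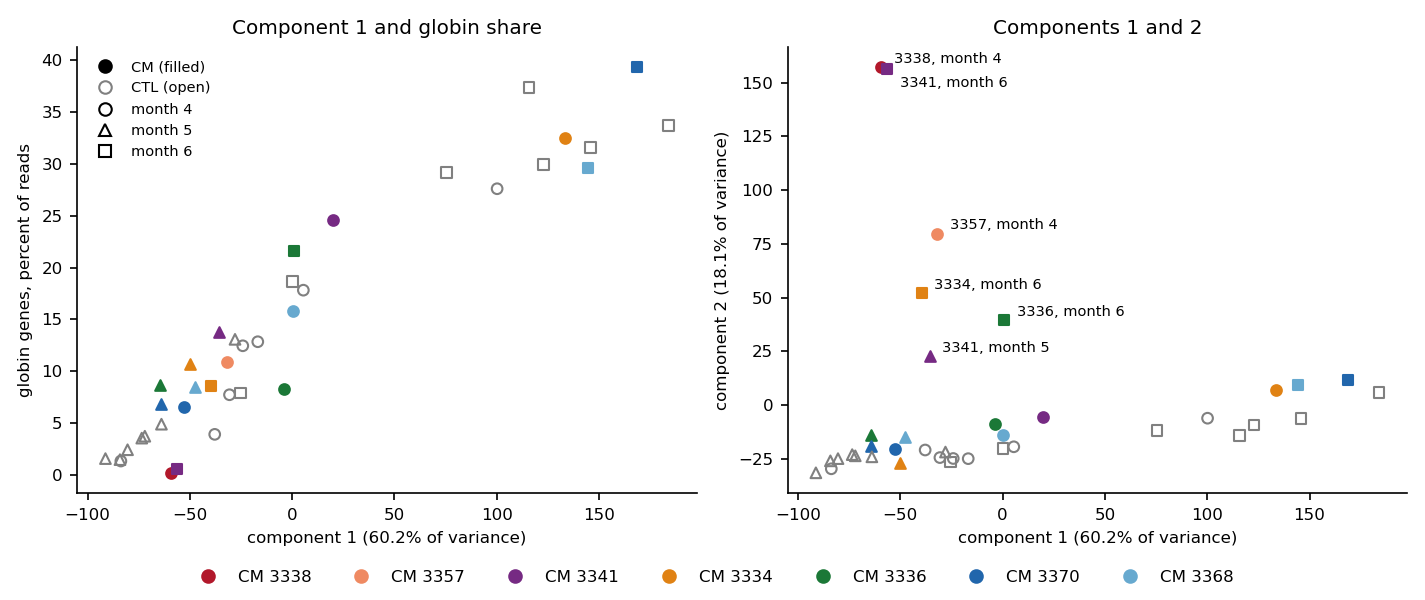
First and second principal components of the 38 libraries, with component 1 against the globin share of reads (left) and against component 2 (right). Filled symbols are CM libraries coloured by mouse, open symbols CTL, with shape by month. Component 1 (60.2% of variance) is high in libraries of both arms with a high globin share, and component 2 (18.1%) has CM 3338 and 3357 of month 4 and CM 3341, 3334 and 3336 of month 6 at its high end.

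Principal components separated these patterns. Component 1, with 60.2% of the variance, was high where globin share was high in both arms, though not in strict order: CTL 3350 at month 6 had 37.4% globin and a value of 115.7, and CTL 3340 had 33.7% and 183.9. Component 2, with 18.1%, had its highest values in CM 3338 at month 4 (157.2) and CM 3341 at month 6 (156.7), then CM 3357 at month 4 (79.8), CM 3334 at month 6 (51.9) and CM 3336 at month 6 (39.4). The highest CTL library was at 5.77, and CM 3368 and CM 3370 at month 6 were at 9.13 and 11.4. The 5 libraries at the high end came from the 5 mice whose last library was at month 7 or earlier.

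Distances between pairs of libraries did not separate the arms by test. At month 4 the 21 pairs of CM libraries averaged an RMS difference of 1.32 and the 21 pairs of CTL libraries 0.875, a difference of 0.44 (two-sided exact permutation test over 3432 splits, p = 0.251, and 0.517 without mice 3334 and 3335). At month 5 the averages were 0.607 in CM and 0.652 in CTL (exact p = 0.687 over 792 splits, and 0.81 without both mice). At month 6 they were 1.69 in CM and 1.13 in CTL (exact p = 0.0833), with exact p = 0.271 without mice 3334 and 3335 and 0.0433 without CTL 3340. A single split is a share of 0.000291 of the splits at month 4 and 0.00126 at months 5 and 6. At month 4 the arms are of equal size, and exchanging them only turns the sign of the difference. The smallest two-sided p is therefore above 0.000291 at month 4, and it is 0.00126 at months 5 and 6. CM pairs lay farther apart on average at months 4 and 6, but the difference did not pass 0.05.

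**Figure D5:**
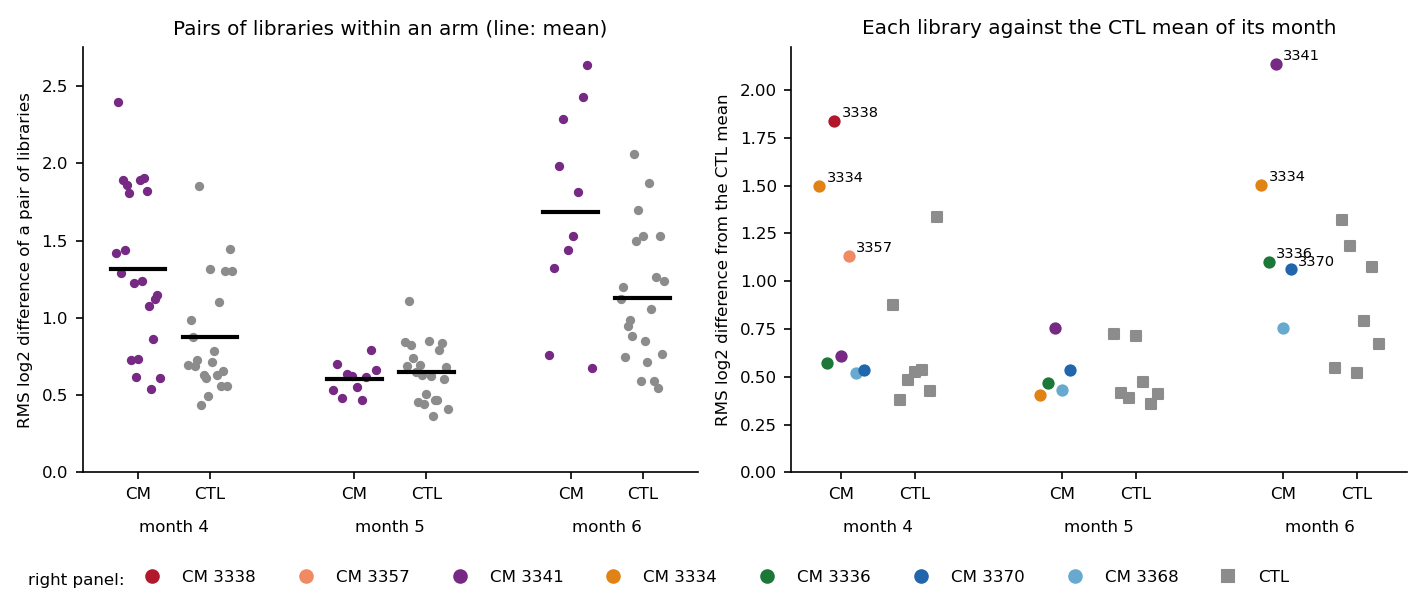
RMS log2 difference of each pair of libraries within an arm (left, lines are means) and of each library from the CTL mean of its month (right, coloured by CM mouse), CM left of CTL at months 4, 5 and 6. CM 3338 at month 4 (1.84) and CM 3341 at month 6 (2.14) lie farthest from CTL, and all month 5 libraries lie below 0.76.

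Gene by gene, the SD among CM libraries was the larger for most genes at months 4 and 6 and for fewer at month 5. At month 4 the median SD was 0.832 log2 in CM and 0.615 log2 in CTL, with 83.7% of the 11230 genes more variable in CM, and 58.7% without mice 3334 and 3335. At month 5 the medians were 0.256 and 0.293 log2, with 34.8% of genes more variable in CM, and 46% without both mice. At month 6 they were 1.12 and 0.817 log2, with 79.6% more variable in CM, and 74.3% without both mice. Cell cycle genes had the larger SD in CM for 20 of 20 members in each month, with median SDs of 2.25 log2 in CM and 0.648 log2 in CTL at month 6, and this list was so at month 5 too (1.02 and 0.437 log2). Mature neutrophil genes did not follow, with 5 of 14 members more variable in CM at month 6 (medians 1.27 and 1.40 log2).

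A test of spread across all genes, limma on absolute residuals, called 0 genes at month 4 (0%), with 1398 at an unadjusted p under 0.05. At month 5 it called 25 genes, all more variable in CM (0.135%), and at month 6 it called 55 (0.297%), 51 more variable in CM and 4 less. These calls came mostly from genes silent in CTL blood: all 25 at month 5 and 40 of 55 at month 6 had 0 to 3 reads in every CTL library. Where every CTL library has 0 reads, the SD can only be larger in CM, so that direction was fixed in advance. The share of all genes with so few CTL reads is not given here. Several month 5 genes were near 0 reads in CM too. Their highest CM library was at -4.23 log2 CPM for Nxf3, -4.21 for Tmem47 and -2.68 for Krt79, while Eln reached 2.29. Predicted genes aside, Hoxc5, a homeobox gene, had the largest difference in mean absolute residual at month 6 (4.99 log2), with 726 (3334), 1 (3336), 277 (3341), 0 (3368) and 0 (3370) reads in CM and 0 in each CTL library. Dbx2, another homeobox gene, had 967, 42, 3237, 0 and 1 reads in the same order and 0 to 1 in CTL, and Slc1a3, a glutamate transporter, had 150, 6, 308, 0 and 0 reads in CM and 0 in CTL. In these 3 genes CM 3334 and CM 3341 were high together, while CM 3368 and CM 3370 had at most 1 read.

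The spread calls rested on few mice. Month 6 gave 1 call (0.0054%) without mice 3334 and 3335, 7 without CM 3334 alone, 245 without CM 3368 and 0 under median-ratio scaling. At month 5, 66 genes (0.357%) were called without mice 3334 and 3335, and 0 without CM 3336 or without CM 3341. Of the 55 genes at month 6, 6 had a mean above 1 log2 CPM, namely Rabgef1, Zwilch, Brip1, Fbxo34, Krt4 and Alms1. Zwilch, a mitotic checkpoint protein, had an SD of 0.98 log2 in CM and 0.294 log2 in CTL, and Brip1, a DNA repair helicase, 1.83 and 0.264 log2.

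Krt5 and Muc5ac were among the 10 genes with the largest SD over CM libraries at month 5, and the arms overlapped. Krt5, a basal keratin, was -0.51 (3334), 5.62 (3336), 0.33 (3341), -2.30 (3368) and 9.21 (3370) log2 CPM in CM at month 5, against -2.83 to 7.61 log2 CPM in CTL. Muc5ac, a surface mucin, was 8.62 log2 CPM in CM 3370 and at most 0.70 in the other CM libraries of that month, against -3.34 to 6.09 log2 CPM in CTL. Their source was not tested.

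Mouse by mouse, CM 3341 had the highest Gata2, Kit and Wnt2 of the 5 CM libraries at month 5. Its Gata2 was 4.53, 7.55 and 9.69 log2 CPM at months 4, 5 and 6, its Kit 4.41, 5.68 and 8.07 log2 CPM, and its Wnt2 29, 447 and 5180 reads. Its platelet genes lay a median of 4.42 log2 below the CTL mean at month 6, and Pf4, platelet factor 4, was 4.34 log2 CPM against 9.20 to 10.46 in CTL. CM 3336 reached 1029 reads of Wnt2 at month 6 after 3 and 60 at months 4 and 5. CM 3334 had 0, 0 and 1925 reads of Wnt2, of which the month 5 library is the one that went against its label.

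Mice 3368 and 3370 kept low levels that were still above CTL for several genes. Their Wnt2 was 19, 10 and 5 reads in CM 3368 and 6, 14 and 5 reads in CM 3370 at months 4, 5 and 6, against 0 in every CTL library but those of 3335 (0, 10 and 1 reads). Their Mcpt1 was 183, 81 and 85 reads in CM 3368 and 20, 81 and 22 reads in CM 3370. C4b was 3.76, 4.09 and 2.62 log2 CPM in CM 3368 and 3.63, 4.29 and 1.73 in CM 3370, above the CTL range of each month (at most 0.44, 3.21 and 0.62 log2 CPM). Kit was 3.66, 3.98 and 2.10 log2 CPM in CM 3368 and 4.69, 4.26 and 1.88 log2 CPM in CM 3370, and at month 6 the CTL maximum was 1.89 log2 CPM.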

How the data were processed

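Blood RNA was sequenced in bulk from 7 CM and 7 CTL mice, 1 library per mouse and month. The deposited values are log2 CPM, in the training table of 18508 genes, and the submitters' processing notes name STAR, Subread featureCounts, edgeR and GRCm38. Tool versions and the strand setting were not given in those notes. At the lowest library 100% of values came out as whole reads (tolerance 0.01, prior of 0.25 reads), and reads printed here were recovered this way. Symbols matched 16266 genes.

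The log2 values were tested with limma 3.58.1 (R 4.3.3, trend, sex as covariate, Benjamini-Hochberg over all genes, threshold 0.05), per month and on each mouse's mean of the 3 months. The 2 other limma tests took the change between months 4 and 6 of each mouse, and leverage-scaled absolute residuals for spread. Pairwise distances used genes above a mean of 1 log2 CPM and an exact permutation test. The count alternative was limma-voom on recovered reads. Tables were handled in pandas 2.3.3 and numpy 2.4.6 under Python 3.11.15, permutations used scipy 1.17.1, and the fits were tested on simulated data. Month to month pairing comes from the mouse number in the labels. Within-mouse correlation after the fit was -0.02. CTL libraries were set against the mean of the other CTL libraries.

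Members, gene lists and named genes were chosen with earlier results of these data known. Named genes were 15 preset genes, all calls where at most 20 were called or else the 10 largest increases and decreases above 1 mean log2 CPM, and the genes, list members and libraries with the largest SD or difference. Alternatives were median-ratio and quantile scaling, low-level filters, a prior of 2 reads, no sex term, and leaving out each mouse or the HW controls. All 7 CM mice, blocks by mouse, and a library group term with those blocks were used too. Leaving out mice 3334 and 3335 and a globin covariate were added after seeing the data. Nothing in the labels says more than that mice are separate animals, and depth limits genes with few reads.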

Additional observations from a re-analysis of the deposited data

Results flagged for a closer look

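Of 171 groups of 4 to 10 libraries examined, 22 held a library far from the others. A rate of 1 in 20 would give about 9. That rate does not hold where all other libraries had no reads, as for Wnt2 in CTL mice at months 5 and 6. The groups also share libraries and genes, so no excess over chance can be read from these counts.

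The month 5 pair accounts for several of the groups with a far library. The library labelled CTL 3335 stood apart from the other CTL libraries of month 5 in Mcpt1 (0.26 log2 CPM), Wnt2 (-1.10), Mki67 (5.65), Cbfb (5.77) and globin share (13.1%). The library labelled CM 3334 stood apart from the other CM libraries of month 5 in Ccl24 (-6.52 log2 CPM), C4b (-2.83), Ncr1 (4.62) and Myh11 (1.33). Mouse 3335 was also apart from the other CTL mice at month 4 in Mki67 (3.43 log2 CPM) and MHY11 (-4.20, 1 read) and at month 6 in Wnt2 (-4.22, 1 read).

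Single CM mice accounted for others. CM 3338 at month 4 stood apart in Cpa3 (11.3 log2 CPM) and in the median difference of the stem and progenitor list (3.23 log2) and of the basophil and mast cell list (9.57 log2). CM 3341 stood apart in Gata2 at month 5 (7.55 log2 CPM), the erythroid list at month 5 (2.83 log2) and the platelet list at month 6 (-4.42 log2). The immediate early list was 0.13 log2 in CM 3370 at month 5, above the other CM libraries, and the mitochondrial list was -1.27 log2 in CM 3334 at month 4, below them. Among CTL libraries, Gata2 was 3.12 log2 CPM in CTL 3342 at month 5 and Cbfb 4.52 log2 CPM in CTL 3350 at month 4.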

How the results depend on the processing

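Directions of the named genes held: 0 reversed over the alternatives, 1223 values kept their side of the threshold, 203 lost a call and 13 gained one. Counts of calls moved more. Month 4 (1 call) gave 2 with median-ratio scaling, 9 with quantile scaling, 0 above 1 mean log2 CPM, 2 without the HW controls, 2 without mice 3334 and 3335, 8 with the globin covariate and 4 with the 5 CM mice sampled throughout. Month 5 (0) gave 251 without the HW controls, which are CTL 3335 and CTL 3340, and 323 without mice 3334 and 3335. Both settings leave out CTL 3335, and leaving out CTL 3335 alone gave 296. Month 6 (3) gave 15 and 24 with median-ratio and quantile scaling, 0 with the filter, 1 with a prior of 2 reads, 1 without the sex term and 27 with limma-voom. The mean of the months (420) gave 957, 908 and 213 with median-ratio scaling, quantile scaling and the filter, 152 with all 7 CM mice, 159 without mice 3334 and 3335 and 1321 with the globin covariate. Quantile scaling split its calls into 445 higher and 463 lower. Median-ratio scaling moved the median of all genes at month 6 to -0.13, against 0.13 in the main analysis.

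With the mouse as a replicate block over the months, 9, 189 and 861 genes were called at month 4, month 6 and in the mean, and 0, 4 and 1610 at month 4, month 6 and in the mean with library group added. The block gave 46, 1 and 555 spread calls at months 4, 5 and 6. The change between months without a replicate block gave 0 calls.

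Spread at month 4 (0) gave 2 with quantile scaling, 1.0e+02 without the sex term and 14 with the 5 CM mice. At month 5 (25) it gave 0 with the filter, 143 without the sex term, 0 without the HW controls and 66 without mice 3334 and 3335. At month 6 (55) it gave 0 with either scaling and with the filter, 156 with a prior of 2 reads, 508 without the sex term, 18 without the HW controls, 1 without mice 3334 and 3335 and 316 with the globin covariate. The month 5 distance difference (-0.0446) reversed to 0.148 without the filter, 0.000672 without the HW controls, 0.0306 without mice 3334 and 3335, 0.018 without CTL 3335 and 0.0114 without CTL 3342. The cause of these shifts was not tested.

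Leaving out 1 mouse at a time gave 0 to 3, 0 to 296 and 2 to 26 calls at months 4, 5 and 6, 172 to 547 in the mean and 0 to 1 for the change between months. Spread calls ran 0 to 20, 0 to 43 and 7 to 245. Distance differences ran 0.229 to 0.645, -0.0961 to 0.018 and 0.38 to 0.761, with 0.626 (exact permutation p = 0.0433) at month 6 without CTL 3340.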
